A study of Homo sapiens with 6 samples.

Results

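The genes described here encode the human aminoacyl-tRNA synthetases and a set of tRNA-modifying enzymes. They were chosen by symbol among protein-coding genes: the cytosolic synthetases (AARS to YARS, with EPRS, FARSA, FARSB and TARSL2), the mitochondrial synthetases whose symbols end in 2, and the modification enzymes NSUN2, ALKBH8 and all genes whose symbols begin with TRMT. Of the 21519 genes in the co-culture expression table, 56 were members: 21 cytosolic synthetases, 17 mitochondrial synthetases and 18 modification enzymes. Of the 9450 genes in the METTL1 knockdown table, each of which had 1 listed peak of 7-methylguanosine (m7G), 48 were members, with 19, 15 and 14 in the same classes. CARS2, KARS, NSUN2, RARS, RARS2, TRMT1, TRMT10B and TRMT44 had no row in the knockdown table and are therefore described in the co-culture libraries only. GARS and KARS each encode both the cytosolic and the mitochondrial enzyme and were kept with the cytosolic class.

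All libraries came from DLD1, an established human colorectal cancer cell line. Bulk RNA-seq compared wild-type cells grown with S-CAFs (the library titled S-CAFs-w13) and a second wild-type library titled DLD1-W13CM, which by elimination is the culture with CAFs, cancer-associated fibroblasts, although its title does not state this. The m7G experiment compared cells carrying a METTL1 knockdown, made with a single construct titled sh2, and control cells titled sh-NT. Input RNA and an m7G antibody pull-down (IP) were sequenced from each line. With a single library in every group there is no measure of replicate spread, and the values describe these libraries.

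An aminoacyl-tRNA synthetase joins an amino acid to the tRNAs that carry it, which supplies the ribosome with its substrates. Separate nuclear genes encode most of the enzymes for the cytosol and for the mitochondrion, and several cytosolic synthetases are held in a multi-synthetase complex by the scaffold proteins AIMP1, AIMP2 and EEF1E1. The modification enzymes methylate or otherwise alter tRNA bases, which affects tRNA stability and decoding. METTL1, the target of the knockdown, writes m7G in tRNA together with WDR4. The members likewise act on tRNA or assist enzymes that do, but not all of them on the tRNAs that METTL1 modifies.

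Depth, as effective library size recovered from the FPKM steps, was 6337932 reads in DLD1-W13CM, 6215547 in S-CAFs-w13, 10454179 in the control input and 11625162 in the knockdown input. METTL1 itself was listed at 5.80 FPKM (fragments scaled to transcript length and library size) in the control input and 3.28 FPKM in the knockdown input, 1.77-fold lower with a 95% counting interval of 1.37 to 2.29. The epithelial marker EPCAM stood at 154 and 149 FPKM in the co-culture libraries, named here and below in the order DLD1-W13CM, then S-CAFs-w13. It is 1 of 8 colon epithelium markers, which did not all stay level. Their summed levels were 1973 and 2926 FPKM, and S-CAFs-w13 held more of 4 and less of 4. CDX2 was listed at 19.0 and 6.83 FPKM, and CEACAM5 at 0.848 and 4.13 FPKM. Of 14 fibroblast markers 7 were in the co-culture table, with summed levels of 5.67 and 5.33 FPKM. COL1A1 was near the floor, at 0.0482 and 0.229 FPKM. The 2 markers that averaged at least 1 FPKM were both lower in S-CAFs-w13, 1 of them with a counting interval below 1. In the same libraries all 13 mRNAs of the mitochondrial genome were lower in S-CAFs-w13 (summed 71011 and 27838 FPKM), and the nuclear RNA MALAT1 was higher (1014 and 5201 FPKM). The part of these shifts in the values below was not tested, except that the scale was also computed without the mitochondrial genes.

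Cytosolic synthetases had the highest median level of the classes in all 4 expression libraries. Their median levels in the co-culture libraries were 30.5 and 37.3 FPKM. Mitochondrial synthetases had medians of 4.76 and 5.71 FPKM there, and modification enzymes 5.01 and 3.78 FPKM. The mitochondrial synthetases and modification enzymes thus lay well below the cytosolic class, and their order differed between the libraries. In the knockdown table the medians were 38.9 and 34.7 FPKM for cytosolic synthetases (control and knockdown input), 9.55 and 7.85 FPKM for mitochondrial synthetases, and 8.75 and 9.12 FPKM for modification enzymes. The tables hold different genes and were scaled apart, so levels are not compared between them. In such bulk RNA, fewer cells that express a gene and less of its RNA per cell cannot be told apart.

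**Figure D1:**
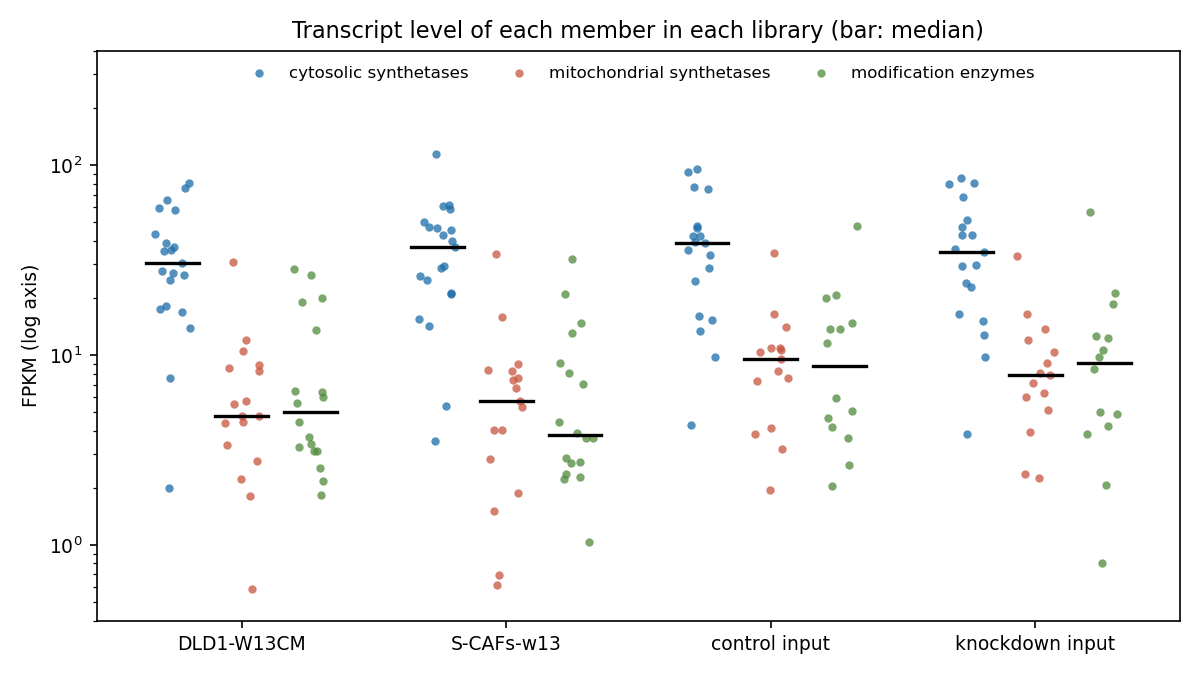
FPKM (log axis) of every member in the 4 expression libraries, with 1 point per gene, coloured by class, and a bar at the class median. The cytosolic synthetases sit highest in each library, with medians between 30.5 and 38.9 FPKM.

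Within each class the level varied widely; the highest and lowest genes are given by the mean of the libraries of a table, and single libraries can rank them differently. EPRS, which charges glutamate and proline tRNAs with 1 bifunctional protein, was the highest cytosolic synthetase in the co-culture libraries at 80.7 and 114 FPKM, and NARS, the asparagine enzyme, was the highest in the inputs at 95.3 and 86.0 FPKM. TARSL2, a second threonine enzyme, was the lowest cytosolic synthetase in both tables. IARS2, the isoleucine enzyme, was the highest mitochondrial synthetase at 30.7 and 34.1 FPKM in co-culture and 34.5 and 33.3 FPKM in the inputs. SARS2, the serine enzyme, was the lowest, at 0.586 and 0.697 FPKM in co-culture and 1.95 and 2.26 FPKM in the inputs. TRMT112, a small partner protein that several methyltransferases need, was the highest modification gene, with 26.5 and 32.1 FPKM in co-culture and 47.7 and 56.7 FPKM in the inputs. The lowest modification genes were TRMT44 in co-culture (1.84 and 2.23 FPKM) and TRMT10A in the inputs.

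The promoters of several cytosolic synthetases share a short sequence. ATF4, the transcription factor of the integrated stress response, is known to bind elements that contain TGATGNAA in genes of amino acid metabolism. This motif was searched on both strands in RefSeq windows of 300 bases (250 before the gene start and 50 from it; GRCh38.p14), which were found for 45 of the 56 members. The following 30-base stretches hold the matches, read 5′ to 3′ on the gene's strand, with the match or its reverse complement in capitals; they are shown because 7 of the 8 belong to cytosolic synthetases.
AARS, chr16:70289675-70289704, minus strand: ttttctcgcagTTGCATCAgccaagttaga
CARS, chr11:3057407-3057436, minus strand: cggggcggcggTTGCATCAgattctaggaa
GARS, chr7:30594834-30594863, plus strand: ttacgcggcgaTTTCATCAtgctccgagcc
IARS, chr9:92293692-92293721, minus strand: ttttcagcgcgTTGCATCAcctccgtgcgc
MARS, chr12:57488053-57488082, plus strand: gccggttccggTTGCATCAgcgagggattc
NARS, chr18:57621804-57621833, minus strand: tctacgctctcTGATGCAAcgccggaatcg
TARS, chr5:33440956-33440985, plus strand: gcgcctttcgaTTGCATCAgctggtccagc
YARS2, chr12:32756076-32756105, minus strand: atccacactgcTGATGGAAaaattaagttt
The first base of the match lies 2 bases before the start set by the window in CARS, 4 in MARS, 13 in IARS and 33 in GARS. In AARS and YARS2 it lies 187 and 197 bases before. In CARS and MARS the match therefore runs across the start. In TARS and NARS its first base lies 2 and 14 bases after the start. For GARS and TARS the RefSeq gene start used for the m7G peaks below is farther upstream (30594735 and 33440696). Counted from there, both matches lie inside the gene. The motif was found for 7 of 16 cytosolic synthetases (43.8%), 1 of 14 mitochondrial synthetases (7.14%) and 0 of 15 modification enzymes, against 1217 of 27305 genes in the whole promoter table (4.46%), or 3.62% of all windows of that length. A match describes letters in the window and is not a measured binding site. Members without a window included AARS2, DARS, LARS, NSUN2, TARSL2, TRMT12, TRMT2A, VARS, VARS2 and YARS.

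The co-culture comparison asks how expression in DLD1 cells differed between S-CAFs-w13 and DLD1-W13CM. Differences were taken as log2 of (FPKM + 1) ratios, which understate the difference of low genes, and genes averaging under 1 FPKM were left out. Counts at 2-fold and 1.5-fold use these log2 differences, whereas the fold given for a single gene is the plain quotient of its FPKM values. The members did not move as a block: of the 55 that passed the filter (all but SARS2), 29 were above 0 and 26 below, with a median of 0.04 against 0.02 over all genes. At 2-fold, 1 member was higher in S-CAFs-w13 (TRMT11) and 4 were lower (TRMT10C, MARS2, TRMT12 and NSUN2), while 9.08% and 7.92% of all 14739 genes tested were higher and lower. FARS2 and PARS2 were also past 2-fold lower by the plain quotient. At 1.5-fold, 4 members were higher and 7 lower, with 20.4% and 18.5% of all genes. The counting interval lay above 1 for 21 members and below 1 for 17, against 28.8% and 25.9% of all genes with an interval. All members are protein-coding, and of the 10460 protein-coding genes that passed the filter the interval lay above 1 for 3584 and below 1 for 3255. The share over all genes includes many low genes with wide intervals.

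The direction of small differences rests on the scale. The authors' own log2 fold changes are the FPKM ratios lowered by 0.14, and scaling the libraries without the mitochondrial genome lowered the median of all genes by 0.22. Of all genes past 2-fold, 53.4% were higher in S-CAFs-w13 as deposited, 39.0% on the authors' scaling and 35.8% on the scaling without mitochondrial genes. The median of the cytosolic class was 0.12 as deposited, -0.03 on the authors' scaling and -0.12 without mitochondrial genes; those of the mitochondrial class were 0.01, -0.14 and -0.22, and those of the modification class -0.15, -0.29 and -0.37. Each rescaling shifts all genes by the same or nearly the same amount, so the order of the class medians stays as it was and is no separate check.

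**Figure D2:**
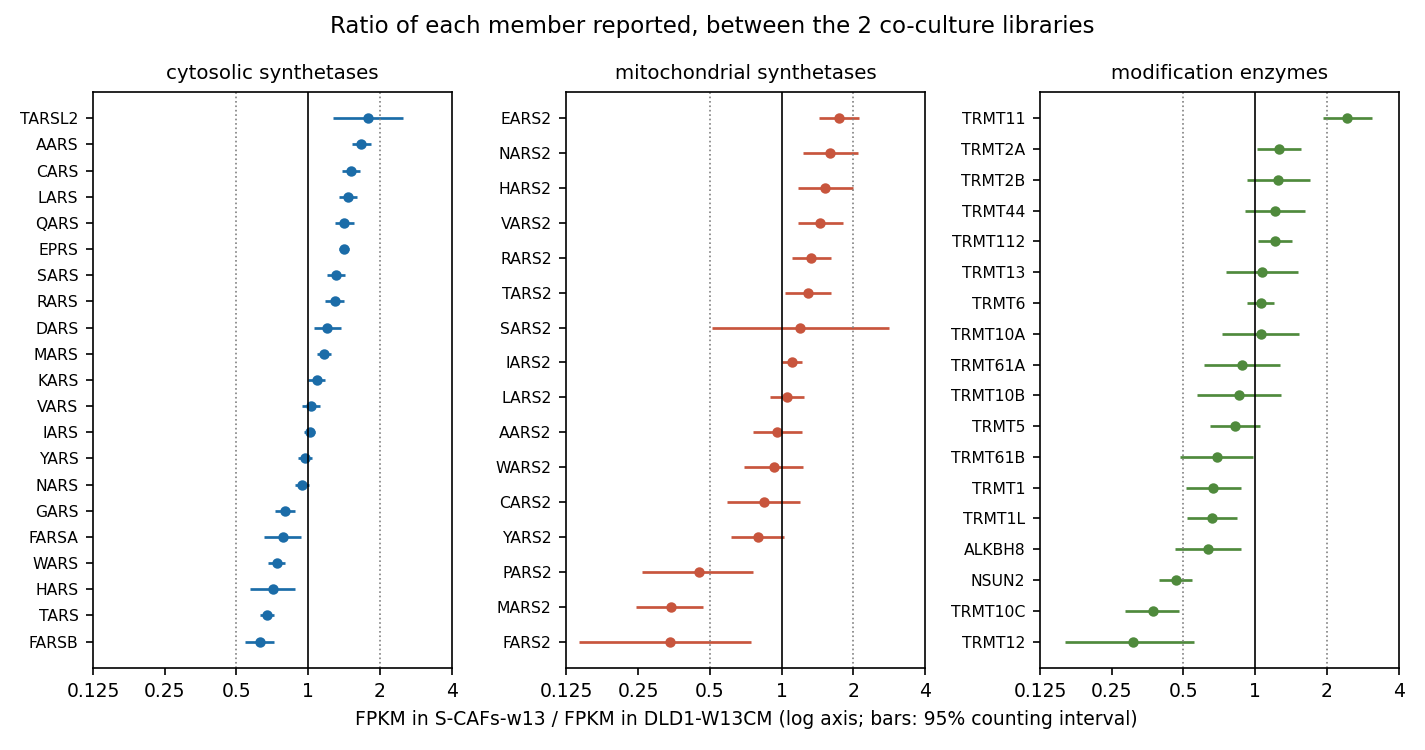
Ratio of FPKM in S-CAFs-w13 to FPKM in DLD1-W13CM for each member reported (log axis), by class, with 95% counting intervals and dotted lines at 2-fold. TRMT11 lies farthest to the right at 2.44, and TRMT12, FARS2, MARS2 and TRMT10C lie farthest to the left, between 0.306 and 0.371.

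Among the cytosolic synthetases 13 were above 0 and 8 below, over a range of -0.65 to 0.72, and none reached 2-fold. AARS, the alanine enzyme, was listed at 27.2 FPKM beside 45.4 FPKM, and was 1.67-fold higher in S-CAFs-w13 (1.53 to 1.83). TARSL2 was listed at 2.0 and 3.54 FPKM, 1.78-fold higher (1.27 to 2.5). In the other direction FARSB, which forms the phenylalanine enzyme with FARSA, was listed at 24.9 and 15.6 FPKM, 1.6-fold lower (1.39 to 1.84). Its partner FARSA was on the same side, at 18.2 and 14.2 FPKM and 1.28-fold lower (1.07 to 1.54). The threonine enzymes lay on opposite sides, since TARS was listed at 59.2 and 39.7 FPKM, 1.49-fold lower (1.39 to 1.59).

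The members of the multi-synthetase complex lay together. All 8 (EPRS, IARS, LARS, MARS, QARS, RARS, KARS and DARS) were above 0, with a median of 0.31 and a range of 0.02 to 0.53, and 7 had a counting interval above 1. Of the 10460 protein-coding genes that passed the filter, 5347 were above 0 and 3584 had an interval above 1. Of the 13 other cytosolic synthetases 5 were above 0 and 8 below, with a median of -0.08. LARS, the leucine enzyme, was listed at 16.9 and 24.9 FPKM, 1.47-fold higher (1.35 to 1.61), and IARS at 57.7 and 58.5 FPKM, with an interval that spans 1 (0.961 to 1.07). The smallest differences crossed 0 with the scale: IARS and KARS were below 0 on the authors' scaling, IARS when the median of all genes was set to 0, and IARS, KARS and MARS on the scaling without mitochondrial genes. The scaffold genes were not higher. AIMP2 was listed at 26.1 and 7.09 FPKM, 3.68-fold lower (2.87 to 4.76), EEF1E1 at 5.92 and 3.82 FPKM, 1.55-fold lower (1.07 to 2.25), and AIMP1 at 12.0 and 11.3 FPKM, with an interval that spans 1.

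Synthetases with the promoter match did not share a direction. AARS, CARS, MARS and IARS were above 0, and GARS, NARS, TARS and the mitochondrial YARS2 below. CARS, the cysteine enzyme, was listed at 14 and 21.1 FPKM, 1.51-fold higher (1.39 to 1.65), and GARS at 75.9 and 60.6 FPKM, 1.25-fold lower (1.14 to 1.38). Of the 13 synthetases commonly listed as ATF4 targets, 8 were above 0 and 5 below with a median of 0.04; of the other 8 cytosolic synthetases 5 were above and 3 below with a median of 0.19. ATF4 mRNA was listed at 167 and 169 FPKM. Of 8 genes of the integrated stress response 3 were at least 2-fold higher: DDIT3, a stress-induced transcription factor (7.98 and 46.4 FPKM), CHAC1, which degrades glutathione (13.4 and 28.7 FPKM), and ASNS, asparagine synthetase (1.03 and 3.32 FPKM). The median of the 8 was 0.11, with 2 below 0; the lowest was PSAT1, a serine synthesis enzyme, at -0.62 (157 and 102 FPKM).

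Mitochondrial synthetases split evenly, with 8 above 0 and 8 below, and spread more widely than the cytosolic class, from -1.28 to 0.68. MARS2, the methionine enzyme, was listed at 8.26 FPKM in the DLD1-W13CM library but 2.82 FPKM in the other, 2.92-fold lower (2.13 to 4.07). PARS2, the proline enzyme, was listed at 3.36 and 1.51 FPKM, 2.23-fold lower (1.33 to 3.87). FARS2, the phenylalanine enzyme, was listed at 1.81 and 0.616 FPKM, 2.94-fold lower, but its interval is wide (1.34 to 7.11) because the values allow as few as 27 and 9 reads. The higher ones were led by EARS2, the glutamate enzyme, at 4.76 and 8.25 FPKM, 1.73-fold higher (1.43 to 2.1). NARS2 and HARS2, the asparagine and histidine enzymes, followed at 1.6-fold (1.23 to 2.09) and 1.52-fold (1.16 to 1.99). Histidine's cytosolic enzyme HARS went the other way, at 7.59 and 5.38 FPKM and 1.41-fold lower (1.13 to 1.76). HARS and HARS2 are related in sequence, and the handling of reads that fit both was not stated in the labels or headers.

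Modification enzymes held the largest differences of the members on the log2 scale, in both directions (-1.31 to 1.16). TRMT11, which methylates a guanosine of cytosolic tRNA together with TRMT112, was listed at 6.04 FPKM in the DLD1-W13CM library but 14.7 FPKM in the other, 2.44-fold higher (1.93 to 3.10). TRMT112 was on the same side at 1.21-fold higher (1.03 to 1.43). TRMT10C, a methyltransferase that is also a subunit of mitochondrial ribonuclease P, was listed at 19.1 and 7.07 FPKM, 2.69-fold lower (2.09 to 3.51). Its partner in that enzyme, HSD17B10, was listed at 38.3 and 17.5 FPKM, 2.20-fold lower (1.77 to 2.74). Both of these subunits and the mitochondrial mRNAs were lower in S-CAFs-w13. Of the 22 tRNA processing and ligation genes tested, 19 were below 0 by any amount, against 7029 of all 14739 genes. A link between the subunits and the mitochondrial mRNAs was not tested. NSUN2, which writes 5-methylcytosine in tRNA, was listed at 28.3 and 13.1 FPKM, 2.16-fold lower (1.84 to 2.54). TRMT12, an enzyme of wybutosine synthesis in phenylalanine tRNA, was listed at 3.38 and 1.04 FPKM, 3.27-fold lower (1.81 to 6.27), with recovered read numbers of 50 and 15. In the class as a whole, 8 genes were above 0 and 10 below, with a median of -0.15, and the interval lay above 1 for 3 genes and below 1 for 7.

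Other tRNA modification genes had a median close to that of the modification class (-0.15), and tRNA processing and ligation genes had a lower one. Of 54 other tRNA modification genes tested, 24 were above 0 and 30 below with a median of -0.17; on the log2(FPKM + 1) scale none passed 2-fold upward (0) and 7 were at least that much lower. By the plain quotient CTU1, a tRNA thiolation enzyme, was higher, at 0.832 and 2.24 FPKM (2.69-fold, 1.3 to 5.96). METTL1 was among the lower ones, at 4.82 and 1.78 FPKM, 2.71-fold lower (1.75 to 4.29), while WDR4 was listed at 4.32 and 3.17 FPKM with an interval that spans 1 (0.508 to 1.06). The rest of those lower were LCMT2, a further wybutosine enzyme (2.31 and 0.208 FPKM), ADAT1, a tRNA deaminase (8.12 and 2.40 FPKM), DUS3L, a dihydrouridine synthase (4.72 and 1.46 FPKM), MOCS3 (1.95 and 0.378 FPKM), OSGEP (3.98 and 0.990 FPKM) and HSD17B10. Of 22 tRNA processing and ligation genes tested, 3 were above 0 and 19 below with a median of -0.35. ANKZF1 passed 2-fold upward (2.37 and 9.31 FPKM), and POP1, a subunit of nuclear ribonuclease P, downward (8.26 and 2.09 FPKM).

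The knockdown comparison asks how METTL1 depletion changed the transcripts in input RNA. Differences were small: all 48 members passed the filter, with 19 above 0, 29 below and a median of -0.07 against 0.01 over all genes. At 1.5-fold 0 members were higher and 2 lower (TRMT10A and NARS2), where 2.5% and 2.68% of the 8400 genes tested were higher and lower. At 2-fold 0 members were higher and TRMT10A alone was lower, with 0.429% and 0.56% of all genes. The counting interval lay above 1 for 6 members and below 1 for 18, against 24.8% and 23.0% of all genes. Of the 7915 protein-coding genes that passed the filter, it lay above 1 for 2003 and below 1 for 1819. The authors' scaling differs here by -0.01.

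**Figure D3:**
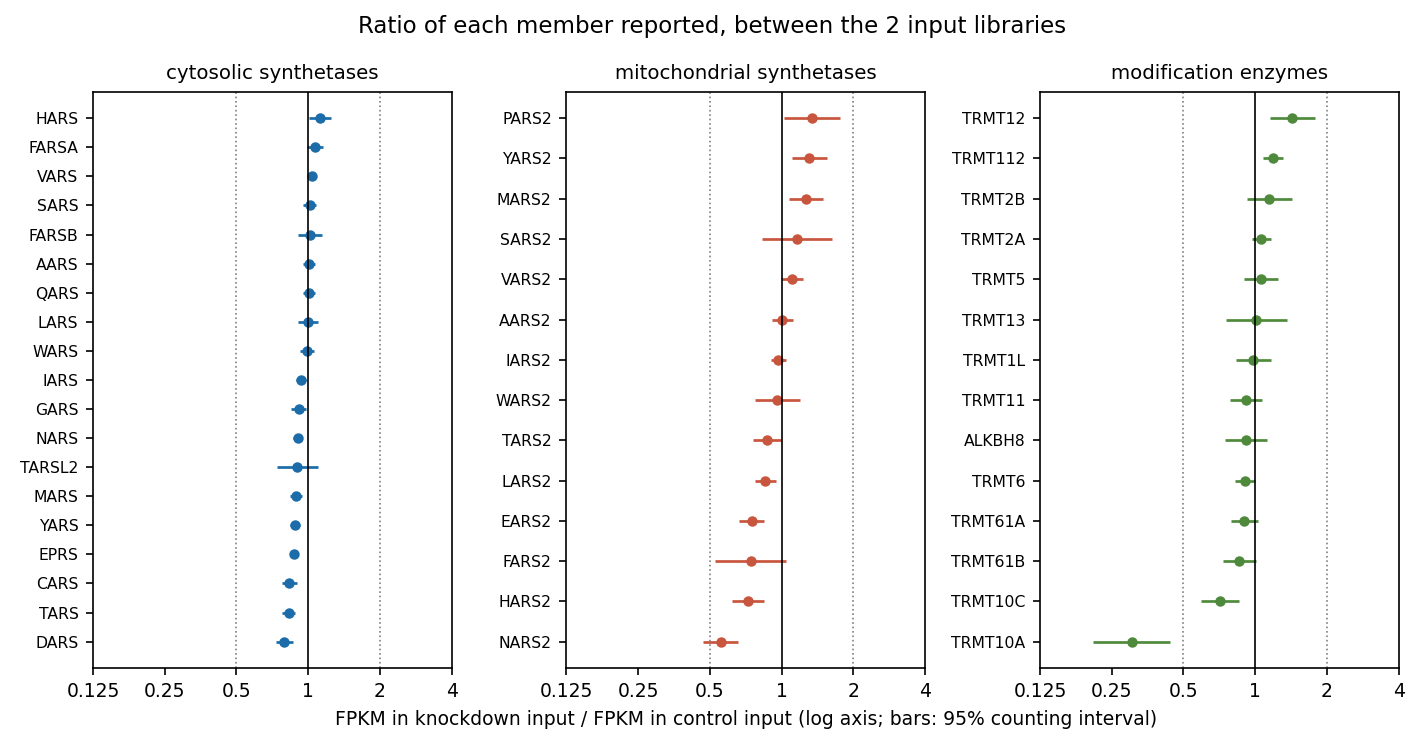
Ratio of FPKM in the knockdown input to FPKM in the control input for each member reported (log axis), by class, with 95% counting intervals and dotted lines at 2-fold. TRMT10A at 0.305 is the only member beyond a dotted line, and NARS2 follows at 0.554.

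TRMT10A, which methylates a guanosine of cytosolic tRNAs, was listed at 2.64 FPKM in the control input and 0.805 FPKM in the knockdown input, 3.28-fold lower (2.29 to 4.80). The values rest on at least 121 and 41 reads. In the authors' deposited table its log2 fold change is -1.73 with an adjusted p of 5.80e-11. In co-culture the same gene was listed at 2.16 and 2.28 FPKM, with an interval that spans 1 (0.727 to 1.53). NARS2 was listed at 10.9 and 6.03 FPKM, 1.81-fold lower (1.52 to 2.15), with a log2 fold change of -0.87 and an adjusted p of 4.96e-11 in the authors' deposited table. These p-values come from 1 library per line and compare the libraries, not the conditions.

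Cytosolic synthetases spanned the narrowest range, between -0.32 and 0.15, with 7 above 0, 12 below and a median of -0.10. DARS, the aspartate enzyme, was the lowest, at 28.6 and 22.7 FPKM and 1.26-fold lower (1.16 to 1.37). Of the 6 members of the multi-synthetase complex in this table, 5 were below 0, with a median of -0.13. QARS alone was above 0, at 42.5 and 42.8 FPKM, and it too was below 0 on the authors' scaling. Of the 13 synthetases listed as ATF4 targets 3 were above 0 and 10 below, with a median of -0.13.

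Mitochondrial synthetases spread further on both sides, from -0.76 to 0.35, with 3 intervals above 1 and 6 below. HARS2 was listed at 10.9 FPKM in the control input and 7.85 FPKM in the knockdown input, 1.38-fold lower (1.19 to 1.61), and EARS2 at 9.55 and 7.15 FPKM, 1.34-fold lower (1.18 to 1.51). PARS2 was listed at 3.83 and 5.13 FPKM, 1.34-fold higher (1.02 to 1.76). YARS2, the tyrosine enzyme, was 1.3-fold higher (1.1 to 1.54) and MARS2 1.26-fold higher (1.07 to 1.48). NARS2, LARS2 and TARS2 also had intervals below 1.

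Of the modification enzymes, TRMT12 had the highest ratio, at 5.91 and 8.45 FPKM and 1.43-fold higher (1.16 to 1.77), and TRMT112 was 1.19-fold higher (1.08 to 1.3). TRMT10C was listed at 13.7 and 9.80 FPKM, 1.40-fold lower (1.17 to 1.68). It was thus on the lower side in both comparisons, whereas TRMT12 was on opposite sides. WDR4 was listed at 13 and 15.6 FPKM, 1.20-fold higher (1.05 to 1.37). Of 43 other tRNA modification genes tested 21 were above 0 and 22 below, and of 23 tRNA processing genes 10 and 13.

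The comparisons share no library, so the members' values can be set side by side. Of the 14 mitochondrial synthetases tested in both, 6 were higher in S-CAFs-w13 and lower in the knockdown input (EARS2, HARS2, NARS2, IARS2, LARS2 and TARS2), and 4 were the reverse (MARS2, PARS2, YARS2 and AARS2). Over all 7945 genes tested in both, 1837 and 1983 lay on these sides. VARS2 was above 0 in both, and FARS2 and WARS2 were among those below 0 in both. NARS2, with log2 differences of 0.58 and -0.76, and MARS2, with -1.28 and 0.30, were the furthest apart. Spearman's rho over the 14 genes was -0.53, a description of genes measured in the same libraries. It was -0.16 over 19 cytosolic synthetases, 0.23 over 14 modification enzymes and 0.06 over all 7945 genes tested in both. The co-culture differences of IARS2 (0.14) and LARS2 (0.06) are smaller than the shift of -0.22 that the scaling without mitochondrial genes brings, so their side rests on the scale. AARS2 was at 0.01 in the knockdown inputs and below 0 on the authors' scaling there, so its side does too.

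Each member in the knockdown table had 1 m7G peak, and all peak values here are those of the authors' deposited table. A peak was listed for 47 of the 55 members that passed the co-culture filter (85.5%), against 74.7% of the 10460 protein-coding genes that did. These sets were not matched for level. Before the filter, median levels were 8.72 and 8.31 FPKM over the 56 members, against 3.92 and 3.82 FPKM over 13836 protein-coding genes. The part of level in these shares was not tested. Of the member peaks, 25 carried a 5′ UTR annotation, 20 one of coding sequence, 3 one of other exonic sequence and 0 one of the 3′ UTR. The shares were 52.1%, 41.7% and 6.25%, against 54.8%, 32.5% and 10.0% over the peaks of all protein-coding genes. The peak centre was within 500 bases of the RefSeq gene start for 35 of the 46 members whose peak overlaps the RefSeq gene (76.1%), against 63.5% for protein-coding genes with such an overlap. The cap at the 5′ end of mRNA also carries m7G, and the labels and headers do not say whether caps were removed.

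Fold enrichment of IP over input had a median of 14.3 over the members and 12.7 over the peaks of all protein-coding genes. It was highest for GARS at 80.4, in coding sequence 221 bases from the gene start, followed by TARS2 at 74.0 and IARS2 at 67.5. CARS had the lowest at 1.81. By class the medians were 18.8 for cytosolic synthetases, 12.1 for mitochondrial synthetases and 12.4 for modification enzymes. Over which libraries the enrichment was computed is not stated.

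**Figure D4:**
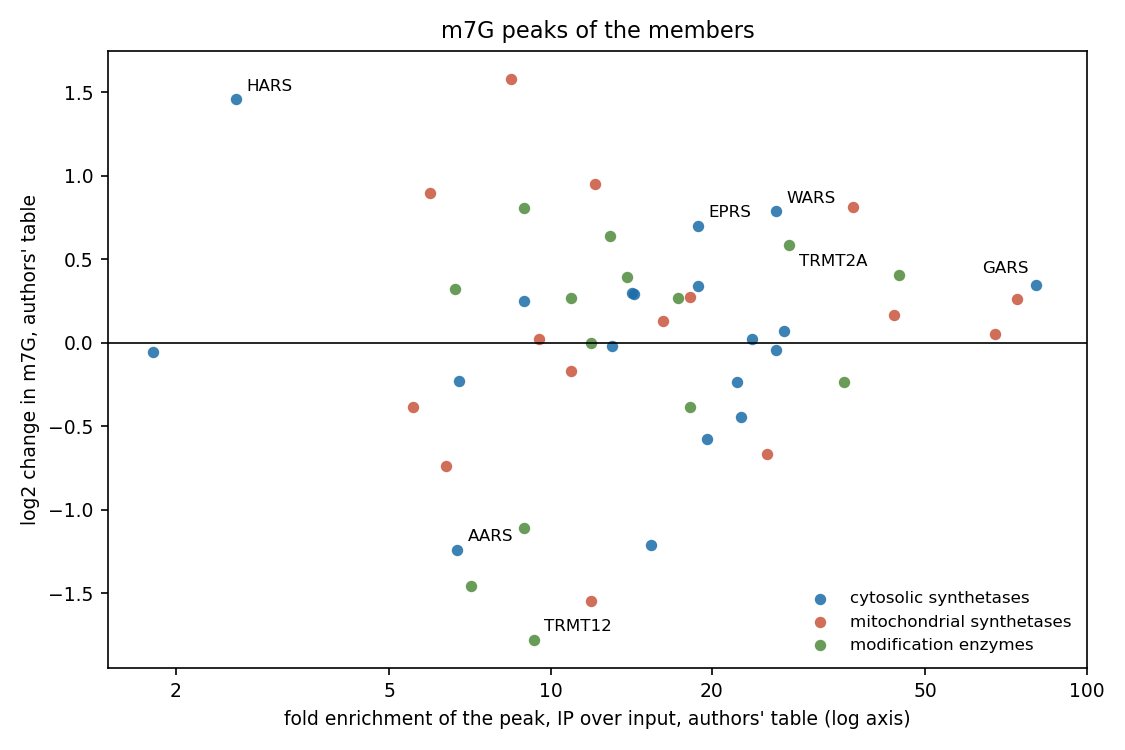
Fold enrichment of each member's m7G peak (x, log axis) against its log2 change in m7G (y), both from the authors' deposited table, coloured by class; genes with an unadjusted p under 0.05 are named. HARS, the only gene whose FDR was below 0.05, combines a change of 1.46 with an enrichment of 2.59, while GARS has the highest enrichment at 80.4.

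The change in m7G between the lines was read as knockdown over control, the direction of the expression columns, although the table does not state it. Of the 48 peaks 28 were higher, 19 lower and 1 at 0. Median log2 changes were 0.02 for cytosolic synthetases, 0.13 for mitochondrial synthetases and 0.27 for modification enzymes, against 0.004 over all peaks. The authors' deposited table gave an FDR below 0.05 to 1 member that was higher (HARS) and 0 that were lower, against 3.07% and 2.18% of all 9450 peaks. At an unadjusted p under 0.05 there, 5 were higher and 2 lower, against 8.6% and 7.5%.

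The HARS peak, at chr5:140683190-140683725 in the authors' coordinates, carries in the authors' deposited table a log2 change of 1.46 with p = 1.26e-05 and FDR = 0.00123. Its enrichment of 2.59 is below that of every other member except CARS, and although it is annotated to the 5′ UTR its centre lies 7.74 kb inside the RefSeq gene from its start. HARS mRNA was listed at 13.4 and 15.0 FPKM in the control and knockdown inputs, 1.12-fold higher (1.01 to 1.25). The peaks of EPRS (0.70), GARS (0.34), WARS (0.79) and TRMT2A (0.58) also had positive log2 changes at an unadjusted p under 0.05, but their FDR values of 0.0933, 0.150, 0.339 and 0.344 did not pass. AARS, with a change of -1.24, and TRMT12, with -1.78, were the negative ones, at FDR values of 0.236 and 0.169. TRMT12 thus had a lower peak value beside a higher input level. The 2 transcripts with the lowest ratios in the knockdown comparison had peaks whose change was not called, at 0.32 for TRMT10A (FDR 0.676) and 0.95 for NARS2 (FDR 0.509).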

How the data were processed

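Expression values were deposited as FPKM by the authors, for 1 library per group; the tools listed in the submitters' processing notes, without steps, are HOMER 4.10.4, SAMtools 1.10, DESeq2, featureCounts 1.6.3, HISAT2 2.1.0 and cutadapt 2.5. The FPKM unit of the knockdown table was inferred from its values. Per the file headers, the authors also deposited log2 fold changes with p-values and adjusted p-values, a fold enrichment (ratio of IP to input) per m7G peak, and the log2 change in m7G with its p-value and FDR as log10. The caller and the numerator of that change are not given in the sources used here.

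From these, log2((FPKM + 1)/(FPKM + 1)) was computed, leaving out genes that averaged under 1 FPKM (pandas 2.3.3, numpy 2.4.6, scipy 1.17.1). No test across libraries was possible. Whole reads were recovered from the FPKM steps to a relative tolerance of 2e-14 (20805 of 20806 genes in co-culture and 9348 of 9348 in the knockdown table), as the smallest numbers the values allow, for an exact (Clopper-Pearson) 95% counting interval of each ratio. True reads can be multiples of these, and the intervals cover counting error only. Recovery was tested on simulated data. The effective sizes rest on RefSeq lengths of short RNAs, 79.1% of which matched.

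The members and lists were chosen with earlier results of these data known. Every member could be named; full values went to those past 1.5-fold in either comparison, with an m7G FDR under 0.05, or at the top or bottom of a class. Others, among them those of the complex, were named after their values were seen. Alternatives changed the pseudocount (0.1), the filter, the scaling, the m7G thresholds and the direction of the m7G change. Protein sequences were not used here. The values of 1 member, counted in its class, are not reported here.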

Additional observations from a re-analysis of the deposited data

How the results depend on the processing

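No paired analysis was possible because every group held 1 library and no test was run. Over 105 recomputed values, 87 stayed within the limits set for them and 18 moved. For class medians the limits were wide enough that a changed sign could count as staying. The cytosolic median in co-culture did so at 0.12 as deposited and -0.12 without mitochondrial genome genes, as did the m7G medians read in the other direction. Some values could not move, since all 48 members passed the filter in the knockdown inputs. The 87 are therefore no measure of robustness. In co-culture, the 4 members at least 1.5-fold higher became 7 with a pseudocount of 0.1 FPKM, 1 on the authors' scaling and 1 on the scaling without mitochondrial genome genes. The 7 that were at least 1.5-fold lower became 4 at a mean of at least 5 FPKM, 13 on the authors' scaling and 15 without mitochondrial genome genes. At 2-fold higher, 0 members were left without mitochondrial genome genes, and 5 members of the multi-synthetase complex were then above 0. In the knockdown inputs, at a mean of at least 5 FPKM, 1 member was at least 1.5-fold lower and 0 at least 2-fold lower, since TRMT10A is not tested there; on the authors' scaling 0 members of the complex were above 0. For m7G, 5 members were higher and 2 lower at p under 0.05, 3 higher and 1 lower at an FDR under 0.2, and 0 higher among peaks with an enrichment of at least 5. Read as control over knockdown, 0 members were higher and 1 lower. Over all genes, a pseudocount of 0.1 gave 1939 genes higher and 1777 lower at 2-fold in co-culture, against 1338 and 1167, and 103 and 112 in the knockdown inputs, against 36 and 47; at a mean of at least 5 FPKM the latter were 7 and 16. On the authors' scaling 988 genes were higher and 1545 lower in co-culture, and 1123 and 2015 without mitochondrial genome genes. Depth limits the low members most, such as FARS2, TRMT12 and TRMT10A.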
